A study of Mus musculus with 24 samples.

Results

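The miR-101 family on this array consisted of 4 mature mouse miRNAs, mmu-miR-101a-3p, mmu-miR-101b-3p, mmu-miR-101c and mmu-miR-101a-5p (written without the species prefix below), of 1881 miRNAs in all, measured with 10 of 4415 probes on all 24 arrays. The members were chosen by name, as a family whose level was known to be lower in liver of mice with diet-induced steatohepatitis, so that the liver diet difference chose them: it is described here and carries no test. Male C57BL/6NJcl mice were fed a choline-deficient high-fat diet supplemented with 0.1% methionine (NASH, for non-alcoholic steatohepatitis, a fatty and inflamed liver) or a standard chow, CE-2 (control). Livers and heart blood were taken after 1, 2 and 6 weeks of feeding, at 7, 8 and 12 weeks of age. Each of the 12 groups (tissue, diet and week) held 2 arrays, 1 colour, Cy3; whether the 2 arrays of a group are 2 mice, 2 pools or 1 RNA is not given in the labels, and a p-value therefore reflects only array-to-array spread, which may be technical. The diet is a model of steatohepatitis in male mice of 1 strain, and serum is a fluid that holds RNA from many tissues.

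MicroRNAs are short RNAs, cut from a hairpin precursor, that guide repressor complexes to messenger RNAs; pairing runs mainly through the seed, the bases near the 5′ end. Each hairpin can give a mature RNA from either arm (5p and 3p), and usually one arm is kept. miR-101 is best known for repressing Ezh2, the enzyme that places the repressive methyl mark on histone H3, and in human liver cancer it is reported at lower levels than in normal liver.

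The sequences are shown because they decide how far the members can be told apart by hybridisation. All 4 were matched by name to mature sequences of RefSeq, build GRCm38.p6, and capitals mark the seed, bases 2 to 8 from the 5′ end.
miR-101a-3p: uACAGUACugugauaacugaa
miR-101b-3p: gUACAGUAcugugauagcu
miR-101c: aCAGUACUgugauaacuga
miR-101a-5p: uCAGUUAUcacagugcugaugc
miR-101a-3p lies at chr4:101346957-101346977 (minus strand), miR-101b-3p at chr19:29135338-29135356 (plus strand), miR-101c at chr9:3038680-3038698 (minus strand) and miR-101a-5p at chr4:101346993-101347014 (minus strand). The RefSeq gene table of that build places Mir101b within the span of the protein-coding gene Rcl1 and Mir101a within the span of the long non-coding RNA gene E130102H24Rik. All 19 bases of miR-101c are contained in miR-101a-3p, and miR-101b-3p shares a run of 15 bases with it. The seeds of these 3 differ because the same run starts 1 base earlier or later, so their probes may take up each other's RNA, and the share of signal due to each was not measured.

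The hairpins show the 2 arms of each precursor, in capitals.
Mir101a: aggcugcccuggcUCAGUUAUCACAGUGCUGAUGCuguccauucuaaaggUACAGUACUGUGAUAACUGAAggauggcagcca
Mir101b: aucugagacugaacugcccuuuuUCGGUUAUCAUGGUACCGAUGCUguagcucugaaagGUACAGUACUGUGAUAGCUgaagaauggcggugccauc
For both precursors only the probes of the 3p arm gave detected signal. Since the 3p probes may take up each other's RNA, signal at the miR-101b-3p probes need not come from Mir101b. miR-101a-5p, measured with 4 probes, was detected on 0 of 24 arrays by the detection flag of the deposited files, and so was miR-101b-5p, the other arm of Mir101b. In liver the signal of miR-101a-5p lay between -0.276% and 0.119% of the scaling value on NASH arrays and between -0.234% and 0.293% on control arrays. No difference in that arm was detectable with these probes.

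Levels are given as a percent of the array's 75th percentile signal, taken over the probes that stood well above background throughout the tissue, and log2 levels are on the same scale with a floor at 2.25% in liver and 3.81% in serum. Levels of different members are not compared, since each has its own probes. Between 337 and 379 miRNAs were detected on NASH liver arrays and between 253 and 307 on control liver arrays; in serum the ranges were 313 to 399 on NASH and 235 to 362 on control arrays. The hepatocyte miRNA miR-122-5p was detected on all 12 liver arrays, and also on 6 NASH and 6 control serum arrays, so its detection does not tell the tissues apart. NASH arrays lay in columns 2 and 4 of every slide and control arrays in columns 1 and 3, so that the effect of the column and that of the diet cannot be told apart. The number of arrays limits the precision.

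In liver, miR-101a-3p, the main guide strand of Mir101a, was lower on every NASH array than on both control arrays of its week, as were 18.3% of the 388 miRNAs tested. After 1 week it stood at 73.8% and 71.4% in NASH livers, against 75.8% and 104.9% in control livers. After 2 weeks it was 20.4% and 44.6% in NASH livers, against 96.7% and 99.4% in control livers. After 6 weeks it was 14.4% and 38.2% in NASH livers, against 70.8% and 93.3% in control livers. The groups lay far apart at weeks 2 and 6 and narrowly apart at week 1. NASH minus control was -0.30 at week 1, -1.70 at week 2 and -1.79 at week 6 on the log2 scale (SE 0.529 each), with a mean over weeks of -1.26 (SE 0.306), a NASH level 0.416 times that of control. In the same comparison limma called 164 of 388 miRNAs (42.3%) at an adjusted p under 0.05, and 79 (20.4%) were lower; since this contrast chose the members, nothing is read from their place in it.

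miR-101c, whose whole sequence lies within miR-101a-3p, was also lower on every NASH array than on both control arrays of its week. It stood at 48.5% and 52.8% in NASH livers and 53.6% and 82.3% in control livers after 1 week. After 2 weeks it was 12.6% and 31.3% in NASH livers, against 77.6% and 79.2% in control livers. After 6 weeks it was 8.52% and 27.1% in NASH livers, against 53.8% and 76.6% in control livers. All 6 NASH arrays lay below the lowest control array, at week 1 narrowly; 11.3% of all tested miRNAs lay apart in this way, and since the liver difference chose the members nothing is read from it. The mean difference was -1.48 (SE 0.364), with weekly values of -0.39, -1.98 and -2.08.

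miR-101b-3p, from the hairpin on chromosome 19, was lower in NASH livers in each week too. It stood at 9.64% and 10.1% in NASH livers and 12.0% and 14.0% in control livers after 1 week. After 2 weeks it was 3.20% and 6.53% in NASH livers, against 14.3% and 13.8% in control livers. After 6 weeks it was 2.24% and 5.10% in NASH livers, against 10.98% and 13.2% in control livers. The lower NASH value at week 6 sat at the floor, so the difference there is understated. All 6 NASH arrays lay below the lowest control array, as for 11.3% of all tested miRNAs, and since the liver difference chose the members nothing is read from it. The mean difference was -1.28 (SE 0.257), with weekly values of -0.40, -1.62 and -1.83. In bulk liver, fewer cells that hold the RNA and less RNA per cell cannot be told apart.

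**Figure D1:**
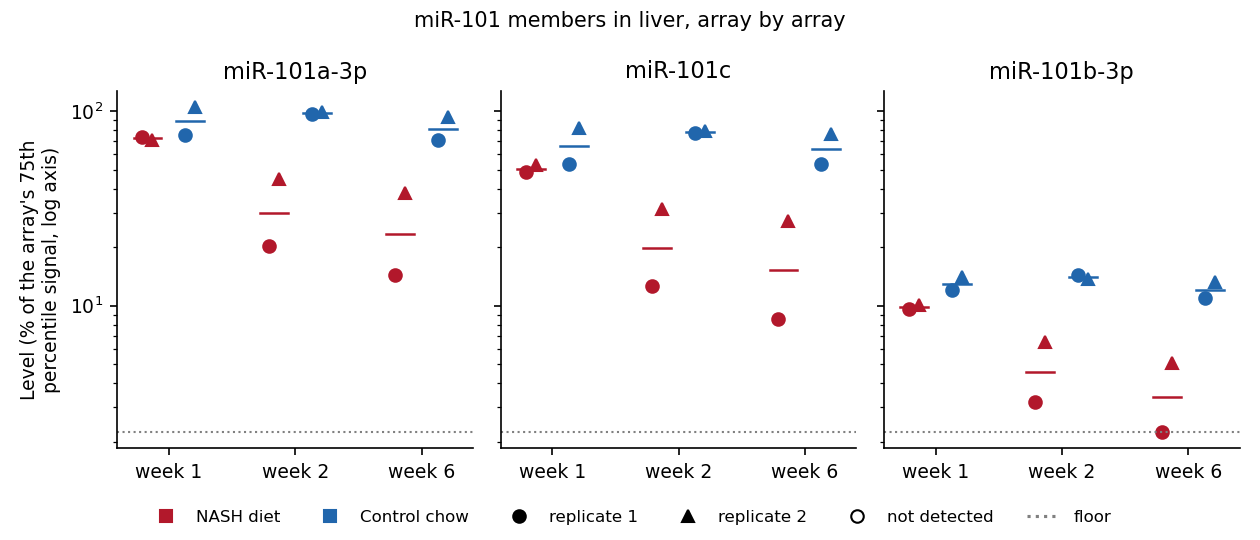
Level of miR-101a-3p, miR-101c and miR-101b-3p on each of the 12 liver arrays, as a percent of the array's 75th percentile signal (log axis), by week, with NASH left of control; bars are means of the 2 log2 values and the dotted line is the floor at 2.25%. NASH replicate 1 is the lowest array at weeks 2 and 6 in all 3 panels, and the groups are close at week 1.

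At weeks 2 and 6 the 2 NASH liver arrays differed more from each other than the 2 control arrays did; at week 1 the control arrays were the further apart. NASH replicate 1 lay below replicate 2 by 1.13 log2 units at week 2 and by 1.41 at week 6 for miR-101a-3p, while the control arrays of those weeks were 0.0395 and 0.398 apart. The gaps were 1.31 and 1.67 for miR-101c and 1.03 and 1.18 for miR-101b-3p. Of 218 miRNAs detected on all liver arrays, 3 to 9 had a gap as low as these in each week. Replicate 1 lay in row 1 and replicate 2 in row 2 of every slide, so replicate and slide row cannot be told apart. Without these 2 NASH arrays, an alternative chosen after the data were seen, the mean differences were -0.86 (SE 0.146) for miR-101a-3p, -1.01 (SE 0.189) for miR-101c and -0.93 (SE 0.0988) for miR-101b-3p; at week 6 the values were -1.01, -1.16 and -1.16. The members were lower in NASH in each week without them too.

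The gap moved with base composition across miRNAs. The members hold 33.3% (miR-101a-3p), 36.8% (miR-101c) and 42.1% (miR-101b-3p) GC. Over the 186 of 218 miRNAs with a RefSeq sequence, replicate 1 minus replicate 2 correlated with GC content at r = 0.48 (Spearman 0.58) in NASH liver at week 2 and 0.68 (0.75) at week 6; the 31 miRNAs under 40% GC, miR-101a-3p and miR-101c among them, had a median gap of -0.44 and -0.60, and the other 155, with miR-101b-3p, of 0.07 and 0.05. Such correlations also held between control replicates, at 0.62, 0.56 and 0.54 for weeks 1, 2 and 6, and with the opposite sign between the NASH replicates of week 1, at -0.48. All points of a correlation share the same 2 arrays, which also lay in different slide rows. The diet difference itself correlated with GC at -0.04 at week 1, 0.51 at week 2 and 0.24 at week 6. With the slope on GC removed from each array, also chosen after the data were seen, the mean difference was -0.92 (SE 0.166) for miR-101a-3p, -1.21 for miR-101c and -1.105 for miR-101b-3p. This step also removed each array's mean shift over the miRNAs detected on all arrays, so it changed the scaling as well. The part of GC content in the diet difference was not tested beyond this.

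**Figure D2:**
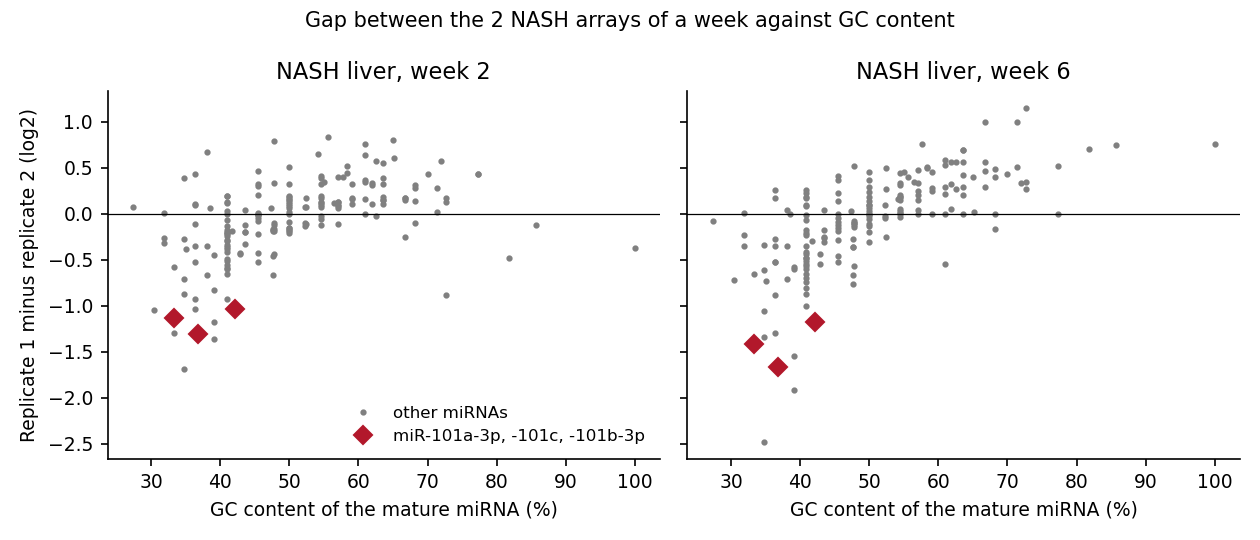
Replicate 1 minus replicate 2 (log2) of each miRNA detected on all liver arrays against the GC content of its mature sequence (percent), in NASH liver at week 2 (left) and week 6 (right); grey points are other miRNAs and red diamonds the 3 detected members. The members, at 33.3% to 42.1% GC, lie near the bottom of both panels.

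The direction at week 1 depended on the scaling of the arrays. The 75th percentile itself was 504.7 to 868.4 signal units on NASH liver arrays and 394.1 to 645.5 on control liver arrays. Without scaling, week 1 changed sign, to 0.21 for miR-101a-3p, 0.12 for miR-101c and 0.11 for miR-101b-3p, while the median over all 388 tested miRNAs moved by 0.224; the means over weeks were -0.83, -1.05 and -0.85. Week 1 also depended on single arrays: without control replicate 2 the difference of miR-101a-3p was -0.06, and without control replicate 1 it was -0.57. The direction of the mean held under each of the 15 alternatives run, between -1.37 and -0.83 for miR-101a-3p, -1.57 and -1.01 for miR-101c, and -1.54 and -0.68 for miR-101b-3p.

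**Figure D3:**
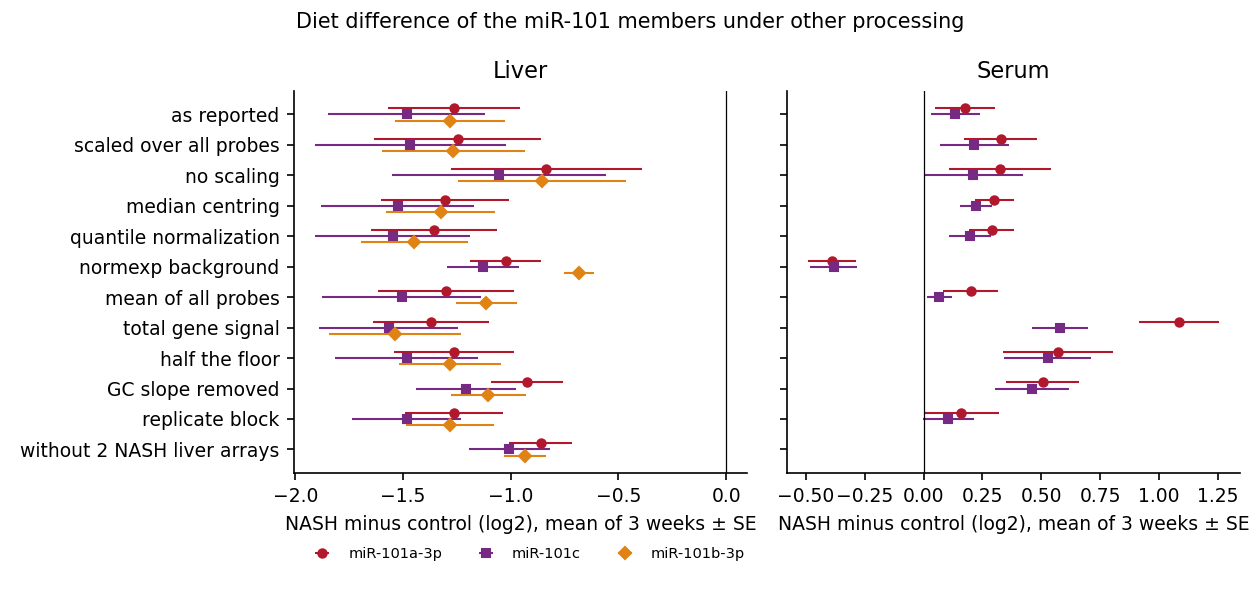
NASH minus control, mean over the 3 weeks (log2, with the SE of the limma fit), of the miR-101 members in liver (left) and serum (right) as reported and under other processing. All liver values lie below 0; the serum values lie near 0 as reported, below 0 with normexp background correction, where the median over all miRNAs was -0.423, and above 0 with the total gene signal.

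The 2 probes of each member told the same direction in liver. Their mean differences were -1.34 and -1.26 for miR-101a-3p, -1.53 and -1.48 for miR-101c, and -0.94 and -1.28 for miR-101b-3p, where the dimmer probe was at the floor on 3 arrays. Within an array, miR-101c minus miR-101a-3p was -0.58 ± 0.12 in NASH livers and -0.36 ± 0.08 in control livers (log2, SD, n = 6 each), so the diet difference of miR-101c was 0.22 log2 units larger in size. miR-101b-3p minus miR-101a-3p was -2.82 ± 0.11 on 5 NASH arrays and -2.78 ± 0.09 on 6 control arrays (SD), a difference within the spread. These are descriptions of liver values that the choice of members used.

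The design also asks whether the diet difference changed between weeks, a contrast that the choice of members did not name. The contrast with week 1 was -1.41 at week 2 and -1.497 at week 6 for miR-101a-3p (SE 0.748 each), and the F test of limma over the 3 weeks gave an adjusted p of 0.432. For miR-101b-3p the adjusted p was 0.388 and for miR-101c 0.471. None of the 3 members passed, and 13 of 388 miRNAs (3.35%) did. The 95% interval for week 6 minus week 1 of miR-101a-3p was wide, from -3.30 to 0.30. Week 1 lay on another slide than weeks 2 and 6, so week 1 and slide cannot be told apart here.

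Weeks 2 and 6 shared a slide in liver and were compared within each diet. Week 6 minus week 2 was -0.36 for miR-101a-3p in NASH livers (95% interval -1.64 to 0.91, adjusted p = 0.940) and -0.27 in control livers (-1.54 to 1.00, adjusted p = 1). For miR-101c it was -0.39 in NASH and -0.29 in control livers, and for miR-101b-3p -0.43 and -0.22, with adjusted p of 0.793 or more in NASH and 1 in control livers. In NASH livers 13 of 388 miRNAs (3.35%) passed, and in control livers 2 (0.515%). Leaving out NASH week 6 replicate 1 turned the NASH value of miR-101a-3p to 0.34, and leaving out NASH week 2 replicate 2 turned it to 0.20.

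In serum, miR-101a-3p was detected on 6 of 6 NASH arrays and 3 of 6 control arrays, miR-101c on 6 NASH and 2 control arrays, and miR-101b-3p on 1 NASH and 0 control arrays, so that miR-101b-3p was not tested. The control arrays of weeks 2 and 6 were dimmer throughout. Their 75th percentile was 144 to 229.9 signal units, against 338.2 to 408.1 on the NASH arrays of those weeks. The detection flag is not scaled for this. miR-101a-3p stood at 6.44% and 9.85% in NASH serum and 4.81% and 6.15% in control serum after 1 week. After 2 weeks it was 4.37% and 4.02% in NASH serum, against 1.02% and 0.882% in control serum, where it was not detected. After 6 weeks it was 3.30% and 2.86% in NASH serum, against 4.75% and 1.79% in control serum. The groups did not overlap at weeks 1 and 2, where 16.7% and 13.6% of the 426 miRNAs tested were likewise higher on both NASH arrays, and they overlapped at week 6; 5 of these 12 values lie under the floor of 3.81%.

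miR-101c read 5.83% and 8.47% in NASH serum and 4.69% and 6.01% in control serum after 1 week. After 2 weeks it read 3.34% and 3.62% in NASH serum, against 0.807% and 0.319% in control serum, and after 6 weeks 3.39% and 3.04% in NASH serum, against 3.51% and 1.47% in control serum. All of its values at weeks 2 and 6 were under the floor and entered the fit as equal.

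**Figure D4:**
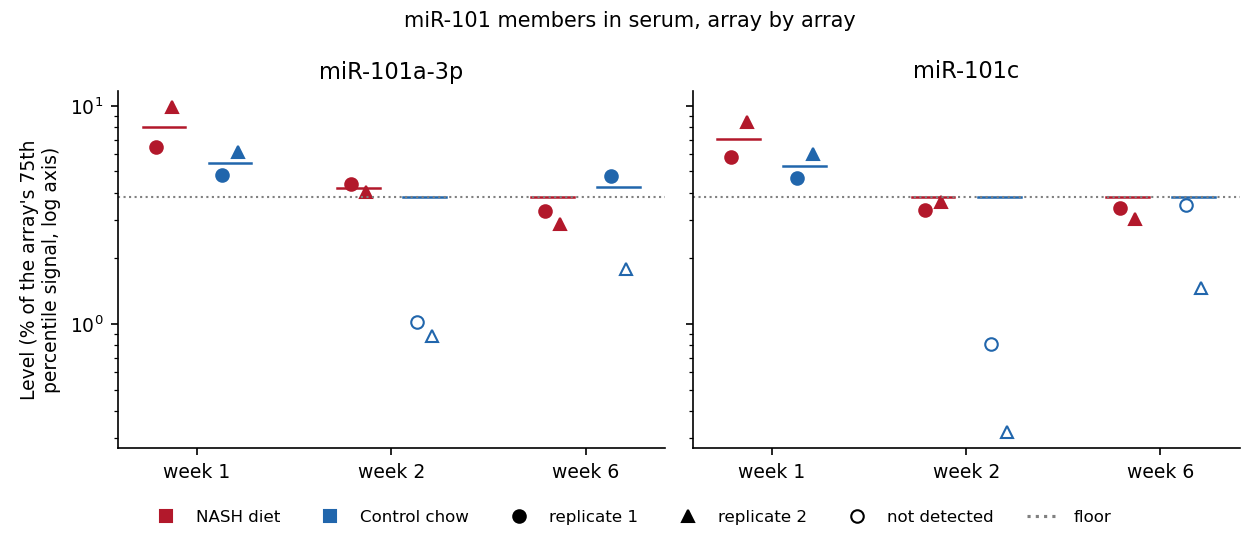
Level of miR-101a-3p and miR-101c on each of the 12 serum arrays as a percent of the array's 75th percentile signal (log axis), by week, with NASH left of control; hollow points were not detected, bars are means of the log2 values after the floor (dotted line, 3.81%). The levels are highest at week 1, and the control values of week 2 lie far below the floor.

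The serum diet difference did not pass the test. NASH minus control, mean over weeks, was 0.18 (SE 0.126, 95% interval -0.13 to 0.48) for miR-101a-3p with an adjusted p of 0.432, and 0.13 (SE 0.104, -0.11 to 0.38) for miR-101c with an adjusted p of 0.483. In the same comparison 80 of 426 miRNAs (18.8%) passed. Permuting diet within weeks, exact and two-sided over 216 arrangements, gave p = 0.333 for miR-101a-3p and 0.667 for miR-101c. The smallest possible p would be 0.00926 without ties, and ties at the floor raised it for both members. All values of miR-101c at weeks 2 and 6 were tied, so its permutation rested on week 1 alone. With the 4 arrays of that week it could not have passed, and nothing is read from it. These intervals cover the values after the floor, which hides any difference below 3.81%.

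By week, the serum difference of miR-101a-3p was 0.55 at week 1 (95% interval 0.03 to 1.07, adjusted p = 0.452), 0.14 at week 2 (adjusted p = 0.846) and -0.16 at week 6 (adjusted p = 0.785). For miR-101c it was 0.40 at week 1 (adjusted p = 0.464) and 0 at the others, where all values were at the floor. At these weeks 1.41%, 2.58% and 12.0% of the 426 miRNAs passed. The difference between weeks had an adjusted p of 0.737 for both members, with 0.469% of miRNAs passing. On the 4 arrays of week 1, miR-101c minus miR-101a-3p was -0.15 and -0.22 in NASH serum and -0.04 and -0.03 in control serum (exact permutation p = 0.333, the smallest possible with 4 arrays).

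The serum result depended on how dim signal was treated. With normexp background correction the difference was -0.39 for miR-101a-3p (adjusted p = 0.00391) and -0.38 for miR-101c (adjusted p = 0.00406), but 365 of 426 miRNAs then passed and the median over all tested miRNAs was -0.423, against -0.111 as reported, so the members lay near that median and not below it. With the total gene signal of the files, which is 0.1 where a miRNA is not detected, it was 1.09 (adjusted p = 0.00606) and 0.58 (adjusted p = 0.0173). With the slope on GC removed it was 0.51 for miR-101a-3p (adjusted p = 0.0422), where the median of all miRNAs moved by 0.307. That step also removed each array's mean shift, so GC and scaling cannot be told apart in this value. With a lower floor, the differences were 0.573 for miR-101a-3p (adjusted p = 0.104) and 0.527 for miR-101c (adjusted p = 0.0647).

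Serum weeks 1 and 2 shared a slide and were compared within each diet. Week 2 minus week 1 was -0.93 for miR-101a-3p in NASH serum (95% interval -1.45 to -0.40, adjusted p = 0.471) and -0.51 in control serum (-1.04 to 0.01, adjusted p = 0.480). For miR-101c it was -0.88 in NASH serum (adjusted p = 0.333) and -0.48 in control serum (adjusted p = 0.480). At week 2 all control values of miR-101a-3p, and all values of miR-101c in either diet, sat at the floor. These falls and their spread are therefore understated, and their sizes are not compared between diets. With a lower floor the falls were -0.93 in NASH and -1.51 in control serum for miR-101a-3p, and -1.02 and -1.48 for miR-101c. In NASH serum 0 of 426 miRNAs (0%) passed by limma, with 14 at an unadjusted p under 0.05, and in control serum 5 (1.17%). Without NASH week 1 replicate 1 the NASH values were -1.23 (adjusted p = 0.0386) and -1.14 (adjusted p = 0.0145), so that array decided the call.

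Liver and serum were set against each other on a scale of 163 probes common to all arrays. Liver minus serum for miR-101a-3p was 2.55 in NASH mice (SE 0.234, adjusted p = 1.51e-07) and 3.81 in control mice (SE 0.234, adjusted p = 1.28e-09), that is a relative level 5.87 times as high in liver as in serum of NASH mice and 14.0 times as high in control mice. For miR-101c it was 2.10 in NASH mice (adjusted p = 2.35e-06) and 3.53 in control mice (adjusted p = 5.87e-09). Of 293 miRNAs, 30.0% were called higher in liver in NASH mice and 22.2% in control mice. miR-101a-3p levels were -2.53 ± 0.85 in NASH livers and -5.08 ± 0.70 in NASH serum, and -1.61 ± 0.05 in control livers and -5.41 ± 0.61 in control serum (log2, SD, n = 6 each); 3 of 6 control serum arrays sat at the floor, so the control contrast is understated. miR-101b-3p was well above background on no serum array, and its liver level was at least 1.43-fold higher in NASH mice and at least 1.5-fold higher in control mice. Liver labelling used 100 ng of RNA and serum labelling 2.5 ng. Serum weeks 1 and 2 lay on slide 1, serum week 6 and liver week 1 on slide 2, and liver weeks 2 and 6 on slide 3. No slide held both tissues of the same week, so tissue and slide cannot be fully told apart in this contrast. Whether the tissue contrast differs between diets was not tested, since the choice of members used the liver diet difference.

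Likeness to miR-101a-3p was the root mean square difference between centred log2 levels over the 12 liver arrays. The 215 candidates were detected on all 12 arrays (median 0.916). The 5 with the smallest difference were taken as most like miR-101a-3p. They were miR-19b-3p (0.162), miR-7a-5p (0.211), miR-451a (0.228), miR-192-5p (0.266) and miR-126a-5p (0.277); the members miR-101b-3p (0.0957) and miR-101c (0.145) lay closer. miR-451a is a red cell miRNA and miR-192-5p a hepatocyte miRNA. All 5 were lower on NASH replicate 1 than replicate 2, with log2 gaps of -1.18 to -0.46 at week 2 and -1.55 to -0.67 at week 6. Their NASH minus control lay between -1.26 and -0.94. They were chosen by likeness over these same arrays, so the shared gaps and differences follow from the choice and nothing is read from them. In serum the nearest were miR-130a-3p (0.257), miR-350-3p (0.303), miR-107-3p (0.306), miR-19a-3p (0.307) and miR-19b-3p (0.355), of 196 candidates (median 0.663), with miR-101a-3p at the floor on 5 of the 12 arrays.

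2 other miRNAs of the array share bases 2 to 7 with a member, miR-144-3p with miR-101a-3p and miR-582-5p with miR-101b-3p; capitals mark those bases.
miR-144-3p: uACAGUAuagaugauguacu
miR-582-5p: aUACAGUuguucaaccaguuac
miR-144-3p, a red cell miRNA, fell by 1.55 in NASH liver (SE 0.393, adjusted p = 0.0190), where 20.4% of all tested miRNAs were called lower, and it fell by 1.33 in NASH serum (SE 0.273, adjusted p = 0.0193), where 13.8% were. It was detected on 4 NASH and 6 control liver arrays, and the 2 NASH arrays without it were replicate 1 of weeks 2 and 6; leaving these out, its liver value was -1.17 and no longer passed. miR-582-5p was not detected in liver and was not tested in serum.

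Marker miRNAs of liver cells moved with the diet, beside the members. All marker lists were chosen with earlier results of these data known, so their counts and p-values are a description. Of 9 hepatocyte miRNAs 8 fell in NASH liver and 0 rose, with a median of -0.98 beside 0 over all tested miRNAs, of which 20.4% were called lower; their summed level was 6668% to 12670% on NASH and 16580% to 19060% on control arrays. miR-122-5p, the most abundant liver miRNA, fell by 0.98 (adjusted p = 2.87e-05), miR-192-5p fell by 1.26 (adjusted p = 0.00044) and miR-148a-3p fell by 0.68 (adjusted p = 0.004). Of 4 red cell miRNAs tested 3 fell, with a summed level of 114.7% to 429.3% on NASH and 373.7% to 672.2% on control arrays, and miR-486a-3p was not detected in liver. On the 2 NASH arrays with the lowest miR-101 the red cell sums were 170.7% and 114.7%, against 329.2% and 215.5% on their replicates, and the hepatocyte sums 8734% and 6668%, against 9316% and 7553%. Without these 2 arrays 8 of 9 hepatocyte miRNAs and 1 of 4 red cell miRNAs were called lower, while the red cell median was -0.83, against -0.96 with all arrays. Their part in the miR-101 difference was not tested.

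Of 7 immune cell miRNAs 5 rose, with a summed level of 316% to 468.2% on NASH and 127.9% to 185% on control arrays, and 21.9% of all tested miRNAs were called higher. miR-223-3p, of neutrophils and other myeloid cells, rose by 1.73 (adjusted p = 0.000452), and miR-342-3p rose by 2.41 (adjusted p = 6.08e-06), while miR-142a-3p, of blood cells, had a difference of 0.65 and did not pass (adjusted p = 0.0744). Of 5 stellate cell and fibroblast miRNAs 2 rose (3 without the 2 NASH arrays), with sums of 104.1% to 167.8% on NASH and 71.67% to 97.47% on control arrays. In serum 5 of 8 hepatocyte miRNAs rose, against 4.93% of all tested miRNAs called higher, with sums of 1937% to 3229% on NASH and 104.4% to 454.1% on control arrays; 3 of 4 red cell miRNAs fell, with sums of 819.9% to 7203% on NASH and 3094% to 6735% on control arrays. Of 7 immune cell miRNAs 1 rose and 3 fell in serum, and of 5 stellate cell and fibroblast miRNAs 0 rose and 2 fell, beside 13.8% of all tested miRNAs called lower. 1 of the 3, miR-155-5p, lay near the floor, was detected on 2 NASH and 3 control arrays, and differed by -0.193. The floor flattens its spread. The 2 serum arrays with the highest red cell sums, NASH and control week 1 replicate 2, also had the highest miR-101a-3p of their groups. At week 2 the orders were opposite in both diets. In NASH serum, replicate 2 had the higher red cell sum (3798% against 2215%) but the lower miR-101a-3p (4.02% against 4.37%). In control serum the sums were 3846% against 3094%, with miR-101a-3p at 0.882% against 1.02%, not detected. In the remaining groups the 2 orders were the same. The part of red cells in serum miR-101a-3p was not tested.

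Other miRNAs reported, mostly in human cells, to target Ezh2 were on the array. The whole list was chosen with earlier results of these data known, so its counts and p-values are a description. Of 6 listed 4 were tested in liver: miR-26a-5p fell by 0.51 (adjusted p = 9.79e-05), miR-26b-5p fell by 0.93 (adjusted p = 0.00226) and miR-98-5p fell by 0.37 (adjusted p = 0.0111), while miR-214-3p, also a stellate cell miRNA, rose by 1.57 (adjusted p = 2.04e-05). miR-214-3p was named beyond the naming rule, after its values were seen. All 4 were called, beside 42.3% of all tested miRNAs. Their median was -0.44 beside 0 over all tested miRNAs. Ezh2 itself was not measured. In serum 2 of 4 tested were called lower, beside 13.8% of all tested miRNAs: miR-26a-5p fell by 1.08 and miR-214-3p fell by 2.05 (adjusted p = 0.0451 and 0.00217).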

How the data were processed

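The deposited files hold the scanner intensity of each spot, per the file headers; the submitters' processing notes name Agilent Feature Extraction, version 11.5. The processed signal is background-subtracted and was not normalized between arrays. Other deposited columns hold detection, background and outlier flags. After outlier spots were dropped and the spots of a probe averaged, an array was divided by its own 75th percentile over probes that all arrays of that tissue showed well above background (liver 299, serum 253, both 163). Low values were then set to 1 floor per tissue (for each array the 5th percentile of its scaled signals above background, then the median of these), and log2 followed. A miRNA was read from its brightest probe and tested if 2 or more arrays of the tissue detected it (liver 388, serum 426, both 293). Values at the floor, 35.6% in liver and 39.1% in serum, understate differences and spread. limma 3.58.1 in R 4.3.3, with eBayes, modelled diet-by-week groups within a tissue (or tissue and diet over all arrays), and p-values were adjusted by Benjamini-Hochberg over all miRNAs tested. The fits were also run on simulated normal values without a floor, which does not bear on values at the floor.

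The members, the marker lists (hepatocyte, red cell, immune, stellate), the Ezh2 list and the naming rule (the members, the 5 most alike per tissue, seed relatives, up to 3 of each list by level) were chosen with earlier results of these data known. The arrays lay on 3 slides, with both diets of a week on 1 slide. Same-numbered NASH and control arrays deviated together from their group means in serum (correlations 0.53, 0.13 and 0.18 at weeks 1, 2 and 6), weakly at weeks 2 and 6. In liver they did not at every week (-0.46, 0.33 and 0.44). The same number also meant the same slide row, so this does not show that the samples were paired. The number entered the fits only as a block, in an alternative. 1 NASH serum array of week 6 has no number in its title. It was called replicate 1, on which the week 6 serum correlation rests, and left out of the block.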

Additional observations from a re-analysis of the deposited data

How the results depend on the processing

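15 alternatives in liver and 13 in serum, and each array left out in turn, were run; those with the GC slope, the slide row block and the 2 NASH liver arrays left out were chosen after seeing the data. In liver the mean over weeks kept its direction in all of these for miR-101a-3p, miR-101b-3p and miR-101c, and liver minus serum kept its direction and call for miR-101a-3p and miR-101c. Where no cause is given, the cause was not tested.

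Without scaling, liver week 1 turned to 0.2115 (miR-101a-3p), 0.111 (miR-101b-3p) and 0.1163 (miR-101c), and week 6 of miR-101b-3p was -1.351. With normexp, miR-101b-3p in liver was -0.6832 over weeks, -0.7501 at week 2 and -0.8913 at week 6, and within arrays its difference to miR-101a-3p turned to 0.3409 and that of miR-101c was -0.1043; the difference of miR-101b-3p to miR-101a-3p also turned with the mean of all probes (0.1892) and was -0.1659 with total gene signal and -0.1812 with the GC slope removed. With the GC slope removed, miR-101a-3p at week 2 was -1.062, and control week 6 minus week 2 turned to 0.1256 (miR-101a-3p) and 0.01472 (miR-101c). Leaving out NASH replicate 1 of weeks 2 and 6 gave -1.154 at week 2 for miR-101b-3p and, at week 6, -1.011 (miR-101a-3p), -1.16 (miR-101b-3p) and -1.164 (miR-101c).

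In serum, normexp, which put the median of all miRNAs at -0.423, turned the mean to -0.3903 (miR-101a-3p) and -0.3817 (miR-101c), week 1 of miR-101c to -0.03424 and week 2 of miR-101a-3p to -0.545; it gave -0.5257 at week 2 for miR-101c, -0.6299 and -0.585 at week 6 for miR-101a-3p and miR-101c, and control week 2 minus week 1 of 0.5008 and 0.4862. The total gene signal gave means of 1.086 and 0.5798, 1.732 at week 2 and 0.8722 at week 6 for miR-101a-3p, week 2 minus week 1 of -1.893 and -1.21 in control serum, and a difference between weeks of 0.2177 for miR-101a-3p. A lower floor gave means of 0.5728 and 0.5271, 1.138 and 0.8668 at week 2, and 0.03137 at week 6 for miR-101a-3p. With the GC slope removed that week 6 value was 0.6447, with a mean of 0.506 and differences between weeks of 0.009137 (miR-101a-3p) and 0.2196 (miR-101c).

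Leaving out 1 array each, liver week 2 ran from -2.266 to -1.137 (miR-101a-3p) and -2.133 to -1.106 (miR-101b-3p), week 6 from -2.496 to -1.091, -2.383 to -1.239 and -2.914 to -1.243 (miR-101a-3p, miR-101b-3p, miR-101c), with NASH replicate 1 left out at the upper and replicate 2 at the lower ends. NASH week 6 minus week 2 ran from -1.066 to 0.3396, -0.9861 to 0.1577 and -1.222 to 0.4491, and control week 6 minus week 2 of miR-101c from -0.5428 to 0.0123. miR-101b-3p minus miR-101a-3p ran from -0.06095 to 0.03155. In NASH serum week 2 minus week 1 ran from -1.232 to -0.6187 (miR-101a-3p) and -1.144 to -0.604 (miR-101c). A group left with 1 array was taken to vary like the others.

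With the replicate number as a block the serum means were 0.1601 (adjusted p = 0.564) and 0.1048 (adjusted p = 0.579), and the block changed no call of a member; the liver count of calls was 172, against 164. Over the alternatives that count ran from 100 (scaled over all probes) to 245 (a lower floor), and the serum count, 80 as reported, from 35 (no filter) to 365 (normexp); without scaling 92.9% of the liver calls were higher, against 51.8% as reported, with normexp 26.2% and scaled over all probes 63%; of serum calls 26.2% were higher as reported, 84.1% without scaling, 82.1% scaled over all probes, 48% with median centring, 50% with quantile normalization, 52.2% with the GC slope removed, 44.2% with total gene signal and 4.38% with normexp. A slide block leaves the diet contrasts as they are, since each week of a tissue lies on 1 slide. The serum difference of miR-101a-3p minus miR-101b-3p was not run, since miR-101b-3p was detected on 1 serum array, and testing only miRNAs detected on all arrays left no serum member.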
